A study of Mus musculus with 20 samples.

Results

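The 34 tumor macrophage genes described here are genes that tumor-associated macrophages are known to use, and they were found by name among the 55866 genes of the count table, where all 34 had counts. They were read in RiboTag EC mice, in which the ribosomal protein Rpl22 carries a hemagglutinin (HA) tag in cells where tamoxifen has switched on Cre under the endothelial Cdh5 promoter. Immunoprecipitation (IP) of tagged ribosomes recovers the translated mRNA of endothelial cells, so that RNA of untagged macrophages in the IP fraction is carry-over. The comparisons therefore ask how much macrophage RNA came through the IP, which genes departed from that carry-over, and whether treatment with an antibody to Notch4 moved these genes in the endothelial fraction or in the whole tumor.

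All mice were female C57BL/6J animals with the genotype Rpl22HA/HA x Cdh5CreERT2, and all had tamoxifen at 3 weeks of age, 75 mg/kg on each of 5 days. Py8119 cells, a line of mouse mammary carcinoma, were placed in a mammary fat pad at 8 weeks. The groups were given 25 mg/kg of the Notch4 antibody 6-3-A6 or control mouse IgG into a vein over 10 days, from a tumor volume of 30 mm3 per the labels and the methods, and 50 mm3 in other text of the study. Each of 10 tumors, 5 per treatment, gave a homogenate (input) and an IP library from the same lysate, and thus 20 libraries. The study kept 3 control IgG IP libraries (2, 4 and 5) and 3 6-3-A6 IP libraries (1, 3 and 4) for its own treatment comparison after a principal component analysis, so the choice was not independent of the values. For the 6-3-A6 samples a description line names the opposite fraction from the title; the titles were followed, and Pecam1, an adhesion protein of endothelial junctions, was between 30.0 and 71.2 CPM (a gene's share of its library's counts, on a common scale) in the 10 libraries titled input and between 193 and 1541 CPM in the 10 titled IP.

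Macrophages engulf dead cells and debris, present antigen and shape vessels and matrix in tumors, and their growth and survival depend on signaling through the receptor encoded by Csf1r. They bind antibody-coated targets through Fc receptors, whose signal passes through the adaptor Fcer1g, and damaged cells and lipid through Trem2 with its adaptor Tyrobp. Complement C1q, scavenger receptors and lectins extend the range of what they bind, and the transcription factor PU.1, encoded by Spi1, controls much of this program.

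Gene counts summed to at least 11881214 and at most 26728205 per library (median 16942643). A count of 0 would allow a level of up to 0.106 to 0.273 CPM, for counting error only, and the lowest count of any member in a library was 7, for Marco. Counting covered the whole span of each gene, introns included, so CPM values were compared between libraries and not between genes. The 17 endothelial marker genes all rose in IP (median 4.52 on the log2 scale). Cdh5, the cadherin of endothelial junctions, was in control IgG tumors at 49.6 ± 7.65 CPM in input and at 981 ± 487 CPM in IP (mean ± SD, n = 5) and rose in IP. The libraries of tumor 6-3-A6 5 stood apart from the others of their groups in the macrophage genes and are described below, and calls that changed without 1 of them are named. For tumors 6-3-A6 4, control IgG 4 and control IgG 2, the deviations of IP and input from their group means across genes correlated at -0.063, 0.046 and 0.15, while the other 7 tumors lay between 0.34 and 0.73.

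Macrophage RNA was lower in the IP fraction than in the homogenate but far from absent. Of the 34 members 26 fell in IP and 0 rose (edgeR quasi-likelihood test, adjusted p under 0.05), with a median log2 fold change of -0.79 against -0.050 for all 13582 genes tested. Among all genes 21.4% were called lower and 19.8% were called higher in IP. Measured within each tumor, the median member was in IP at 62.2% of its input level, from 44.4% for Marco to 116% for Siglec1, and 16 of the members were lower in IP in all 10 tumors.

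**Figure D1:**
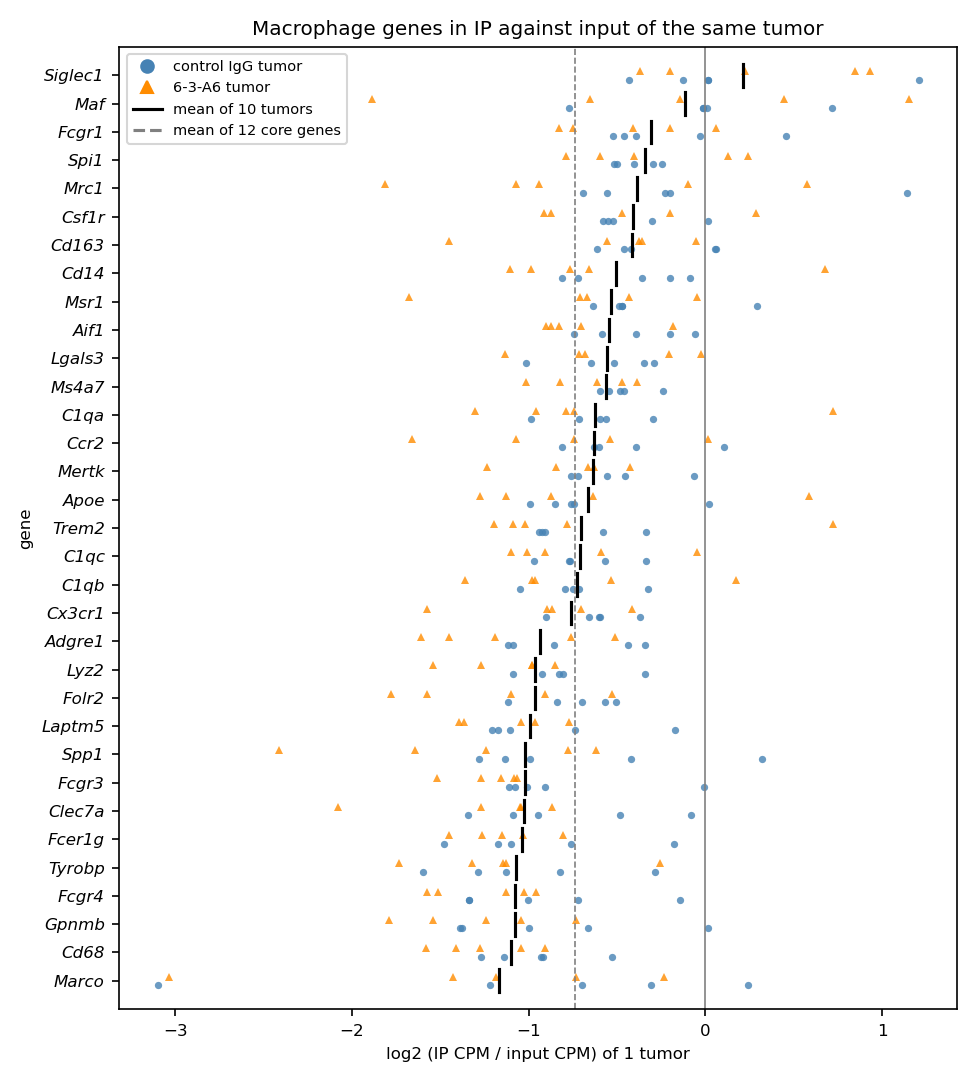
Log2 ratio of the IP level to the input level of the same tumor (x axis) for 33 of the 34 macrophage genes (y axis), with control IgG tumors as circles, 6-3-A6 tumors as triangles and the mean of 10 tumors as a black bar. Most genes lie left of 0 near the dashed line, the mean of 12 core macrophage genes, while Siglec1 and Maf lie farthest to its right.

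The 3 chains of complement C1q, the molecule that starts the classical pathway and opsonizes dying cells, are encoded side by side on chromosome 4 (GRCm39, C1qa at 136623228 to 136626114). C1qa was at 1341, 1344, 960.3, 1103 and 1260.5 CPM in control IgG input 1 to 5 and at 888, 909.6, 585, 897 and 636 CPM in the IP of the same tumors. In 6-3-A6 tumors 1 to 5 it was at 929, 721, 939, 256 and 2394 CPM in input and at 478, 431, 381, 423 and 1384 CPM in IP. The IP level was the lower one in 9 of 10 tumors, and tumor 6-3-A6 4, with the lowest input of all, was the exception. C1qa fell in IP (log2 fold change -0.76 ± 0.29 SE, adjusted p = 0.0404), as did C1qb (-0.85 ± 0.24) and C1qc (-0.83 ± 0.23). The call of C1qa was lost in 10 of the 20 fits that left out 1 library, 6-3-A6 input 5 among them, and without the filter on low counts, while C1qb and C1qc were called in all 20 fits.

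Among the receptors for growth factors and chemokines, Cx3cr1, the fractalkine receptor, and Ccr2, which draws monocytes into tissue, fell in IP by 0.76 and 0.73 on the log2 scale. Other genes overlap 57.4% of the span over which Cx3cr1 was counted, so part of its reads may belong to them. Csf1r, the receptor for colony-stimulating factor 1, was at 398, 662, 447, 577 and 835 CPM in control IgG input and at 272, 668, 311, 468 and 558 CPM in control IgG IP. In 6-3-A6 tumors it was at 568, 391, 452, 155 and 682 CPM in input and at 310.2, 339.7, 240.1, 189 and 492 CPM in IP. The fractions overlapped, and Csf1r was lower in IP in 8 of 10 tumors. Its log2 fold change of -0.50 ± 0.23 SE was not called (adjusted p = 0.0830), but was with the tumor as a block (adjusted p = 0.00216) and without 6-3-A6 input 4 or 6-3-A6 IP 5.

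Of the Fc receptors, Fcgr3 and Fcgr4, activating receptors for IgG, fell in IP by 1.09 and 1.10 on the log2 scale. Fcgr1, the high-affinity receptor for IgG, stayed nearer to its input level. It was at 134, 144, 124, 141 and 150.1 CPM in control IgG input and at 131, 197, 94.2, 103 and 104 CPM in control IgG IP. In 6-3-A6 tumors it was at 106, 99.5, 100.5, 63.4 and 365 CPM in input and at 79.8, 59.1, 56.4, 66.0 and 318 CPM in IP. Both libraries of tumor 6-3-A6 5 were the highest by far, and the fractions overlapped. The log2 fold change of Fcgr1 was -0.31 ± 0.32 SE (adjusted p = 0.449); it was called with the tumor as a block (-0.39, adjusted p = 0.00846) and without 6-3-A6 IP 5 (-0.69, adjusted p = 0.0483), and was 0.014 without 6-3-A6 input 5.

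The adaptors with an immunoreceptor tyrosine-based activation motif (ITAM) were among the members with the smallest carry-over. Tyrobp, also known as DAP12, was at 188, 224, 148, 156 and 168 CPM in control IgG input and at 106, 73.8, 67.8, 128 and 68.6 CPM in control IgG IP. In 6-3-A6 tumors it was at 156, 125, 160.5, 78.3 and 337 CPM in input and at 62.4, 57.2, 72.4, 65.5 and 101 CPM in IP. Every tumor had the lower level in IP, and Tyrobp fell by 1.20 ± 0.20 SE on the log2 scale (adjusted p = 8.75e-05). Fcer1g, the shared gamma chain of Fc receptors, fell by 1.13. Trem2, a lipid-sensing receptor that signals through Tyrobp, was at 66.0, 72.0, 56.4, 54.9 and 46.5 CPM in control IgG input and at 52.3, 37.4, 29.7, 36.7 and 24.7 CPM in control IgG IP. In 6-3-A6 tumors Trem2 was at 54.8, 32.1, 39.9, 11.0 and 113 CPM in input and at 23.9, 18.6, 19.6, 18.3 and 53.0 CPM in IP. It was lower in IP in 9 of 10 tumors and fell by 0.88 ± 0.28 SE (adjusted p = 0.0175), again with tumor 6-3-A6 4 as the exception.

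The scavenger and lectin receptors spread most widely, with 6 of 9 called lower in IP. Cd68, a glycoprotein of the macrophage lysosome, was at 228, 343, 380.1, 307 and 321 CPM in control IgG input and at 94.7, 181, 173, 213 and 168 CPM in control IgG IP. In 6-3-A6 tumors Cd68 was at 292, 197, 299.6, 245 and 457 CPM in input and at 120.2, 105, 100.0, 92.2 and 222 CPM in IP. It was lower in IP in all 10 tumors and fell by 1.15 ± 0.19 SE on the log2 scale (adjusted p = 5.81e-05), the smallest adjusted p of the 34. Clec7a, the receptor for fungal beta-glucan known as Dectin-1, fell by 1.09, Folr2, a folate receptor of resident macrophages, by 1.02, Msr1, a scavenger receptor for modified lipoproteins, and Cd163, the receptor for haptoglobin and hemoglobin, also fell, and Cd14, a co-receptor for endotoxin, fell by 0.65. Msr1 and Cd163 were not called without the filter on low counts, and Cd163 and Cd14 were not called in the tumors of the kept IP libraries.

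Mrc1, the mannose receptor CD206, was at 1067, 680.1, 845, 929.9 and 1107 CPM in control IgG input and at 661, 1499, 574, 808 and 945 CPM in control IgG IP. In 6-3-A6 tumors it was at 969.9, 712, 707, 1094 and 809.5 CPM in input and at 461, 666, 369, 312 and 1206 CPM in IP. The fractions overlapped, with IP the higher one in tumors control IgG 2 and 6-3-A6 5, and the log2 fold change of -0.36 ± 0.23 SE was not called (adjusted p = 0.217). Marco, a scavenger receptor for particles and bacteria, was low and uneven, at 1.99, 1.47, 1.08, 11.9 and 13.6 CPM in control IgG input and at 1.59, 1.76, 0.401, 1.29 and 8.34 CPM in control IgG IP. In 6-3-A6 tumors Marco was at 0.507, 0.993, 1.95, 6.74 and 13.2 CPM in input and at 0.415, 0.551, 0.653, 0.722 and 5.74 CPM in IP. A few tumors held most of the Marco reads in each group, and its log2 fold change of -1.40 ± 0.67 SE was not called (adjusted p = 0.0959). It was called with the tumor as a block (-1.35, adjusted p = 0.00429), without control IgG IP 5 (-1.93, adjusted p = 0.0283) and without 6-3-A6 IP 5 (-1.98, adjusted p = 0.0273).

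Of the 6 genes for efferocytosis, lipid and matrix handling 5 fell in IP. Apoe, the lipid carrier apolipoprotein E, was at 4176, 6380.1, 4639, 3827 and 5539 CPM in control IgG input and at 2494, 3534, 2737, 3889 and 2788 CPM in control IgG IP. In 6-3-A6 tumors it was at 4824, 3042, 5383, 1026 and 6814 CPM in input and at 2206, 1955, 2223, 1541 and 3726 CPM in IP. Apoe was lower in IP in 8 of 10 tumors and fell by 0.83 ± 0.24 SE on the log2 scale (adjusted p = 0.00851), but was not called in the tumors of the kept IP libraries. Spp1, the matrix protein osteopontin, was at 4257, 3665, 4495, 2849 and 3105 CPM in control IgG input and at 2139.9, 2735, 1853, 3558 and 1416 CPM in control IgG IP. In 6-3-A6 tumors Spp1 was at 3602, 2927, 2638, 4087 and 2243 CPM in input and at 1155, 1709, 1116, 767 and 1460.0 CPM in IP. It was lower in IP in 9 of 10 tumors and fell by 1.07 ± 0.21 SE (adjusted p = 0.000354). Gpnmb, a glycoprotein of lipid-laden macrophages, fell by 1.13, Mertk, a receptor for dying cells, by 0.68 and Lgals3, the lectin galectin-3, by 0.65.

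Of the lineage markers, Lyz2 (lysozyme), Laptm5 (a lysosomal membrane protein of blood cells) and Ms4a7 fell in IP by 1.02, 1.04 and 0.61 on the log2 scale. Adgre1, which encodes the marker F4/80, was at 172, 219, 196, 232 and 275 CPM in control IgG input and at 79.2, 173, 92.4, 171 and 151 CPM in control IgG IP. In 6-3-A6 tumors Adgre1 was at 202, 153, 168, 148 and 315 CPM in input and at 66.1, 90.6, 73.4, 54.2 and 221 CPM in IP. All 10 tumors had the lower level in IP, and Adgre1 fell by 0.91 ± 0.23 SE (adjusted p = 0.00359). Aif1, the calcium-binding marker Iba1, had a log2 fold change of -0.64 ± 0.33 SE and was not called (adjusted p = 0.123), but was with the tumor as a block (adjusted p = 0.000372) and without 6-3-A6 IP 5. With that block 30 of 34 members fell in IP, against 27.3% of all genes lower and 25.1% higher. Fcgr3, Ccr2 and Lyz2 have close relatives, and how reads shared with them were counted is not given in the sources used here.

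The carry-over differed between tumors. The mean over 12 core macrophage genes (Adgre1, C1qa, C1qb, C1qc, Csf1r, Cd68, Fcgr1, Fcer1g, Tyrobp, Laptm5, Spi1 and Ms4a7) placed the IP level between 44.8% of input in tumor 6-3-A6 3 and 80.0% in tumor control IgG 4. On the log2 scale it was -0.67 ± 0.21 (SD, n = 5) in control IgG tumors and -0.80 ± 0.30 in 6-3-A6 tumors, a difference smaller than the spread within either group. The tumors with the 2 highest values, control IgG 4 and 6-3-A6 4 (77.8%), had very different endothelial enrichment, with mean log2 ratios of the endothelial genes of 3.04 and 5.90. The number of members lower in IP ranged from 24 of 34 in tumor control IgG 2 to all 34 in tumors control IgG 5, 6-3-A6 1 and 6-3-A6 3. Tumors control IgG 4, 6-3-A6 4 and control IgG 2 were those whose IP and input deviations correlated least (0.046, -0.063 and 0.15). Their ratios are read with that limit, and its cause was not tested.

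**Figure D2:**
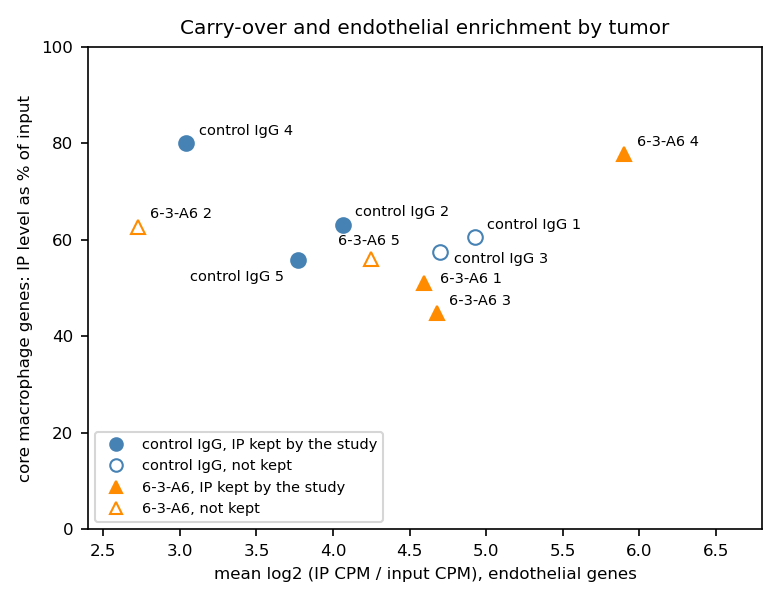
Mean IP level of the 12 core macrophage genes as a percentage of input (y axis) against the mean log2 ratio of IP to input of 17 endothelial genes (x axis) in each of the 10 tumors, with filled symbols for IP libraries that the study kept. Carry-over spans 44.8% to 80.0%, and tumors control IgG 4 and 6-3-A6 4 with similar carry-over lie at opposite sides of the endothelial range.

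To find the members that departed from this carry-over, libraries were scaled so that the 12 core genes had on average no change between fractions, and the other 22 members were tested. Of the 22, 2 were called higher than the carry-over and 0 were called lower, and the median of the 22 was 0.012 on the log2 scale against 0.77 for all genes. On this scale 61.3% of all genes were called higher and 0.788% were called lower, a background that the scaling itself moved up. The 22 spread from -0.74 to 1.00, with 11 above 0 and 11 below it.

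Siglec1, the sialic acid receptor CD169 of macrophages in contact with blood and lymph, departed most. It was at 64.6, 109, 126, 117 and 169 CPM in control IgG input and at 65.2, 252, 127, 86.9 and 155 CPM in control IgG IP. In 6-3-A6 tumors Siglec1 was at 115, 94.8, 64.7, 30.7 and 174 CPM in input and at 100.0, 111, 50.1, 55.4 and 332 CPM in IP. The fractions overlapped in part, with the 2 highest values in IP and the lowest in input, and IP was the higher one in 6 of 10 tumors, and Siglec1 lay above the core genes in 9 of 10. Against carry-over its log2 fold change was 1.00 ± 0.26 SE (adjusted p = 0.00160), and it was called without each library in turn, at 0.89 to 1.08. Without that scaling Siglec1 did not differ between fractions by a called amount (0.27 ± 0.33 SE, adjusted p = 0.530, and -0.075 without 6-3-A6 IP 5).

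With the tumor as a block 6 of the 22 members were called, 3 higher and 3 lower, against 74.8% of all genes higher and 1.69% lower. Siglec1 (0.95, adjusted p = 7.33e-05) and Maf (0.64 ± 0.25 SE, adjusted p = 0.0270) were among those above carry-over. Fcgr4 (-0.34, adjusted p = 0.00984), Gpnmb (-0.34, adjusted p = 0.0341) and Fcgr3 (-0.29, adjusted p = 0.0365) were below it. Maf encodes a transcription factor of resident macrophages. It was at 403, 158, 238, 308 and 280.4 CPM in control IgG input and at 236, 260.0, 236, 309 and 278 CPM in control IgG IP. In 6-3-A6 tumors Maf was at 246, 229, 282, 874 and 223 CPM in input and at 223, 311, 179, 236 and 496 CPM in IP. Input of tumor 6-3-A6 4 was more than any other library, and without it the departure of Maf was 0.80 (adjusted p = 0.00353), against 0.29 ± 0.32 SE with it and without the block (adjusted p = 0.438). Maf is also known in other cell types, endothelial cells included, and their part in its level was not tested.

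At the lower end of the 22, without the block, were Marco (-0.74 ± 0.54 SE, adjusted p = 0.236), Clec7a (-0.38 ± 0.25, adjusted p = 0.182) and Spp1 (-0.36 ± 0.27, adjusted p = 0.248), none of them called. Marco was called lower without control IgG IP 5 (-1.31, adjusted p = 0.0317), and Fcgr4 without 6-3-A6 IP 5. The core genes set the scale and are described only. Among them Fcgr1 (0.46) and Spi1 (0.41) lay highest and Cd68 (-0.37) and Tyrobp (-0.31) lowest, and Csf1r and Spi1 lay above the core mean in all 10 tumors.

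Spi1 fell in IP by 0.44 ± 0.17 SE on the log2 scale (adjusted p = 0.0416), a call that was lost in 12 of the 20 fits without 1 library, 6-3-A6 input 5 among them, and without the filter on low counts. In all, 24 members were called without 6-3-A6 input 5, and 30 without 6-3-A6 IP 5, where Csf1r, Aif1, Marco and Fcgr1 were added. PU.1, its product, is known to bind a purine-rich box with the core GAGGAA, which reads TTCCTC on the other strand. In RefSeq promoter windows of 300 bases (GRCm38.p6, from 250 bases before to 50 after a start), 24 of the 34 members had 31 windows. The letters occurred on either strand in 18 of these windows (58.1%) and in 28.3% of all 32851 windows, and in at least 1 window of 15 of the 24 members. The windows of 4 members are shown because they hold the box in members of 3 roles, C1q, a lectin and a matrix protein, that were all lower in IP or in 6-3-A6 IP; the capitals mark the box on either strand. Both C1q windows are on the minus strand of chromosome 4, at chr4:136886151-136886450 for C1qb and chr4:136892865-136893164 for C1qc. The Mrc1 window is on the plus strand at chr2:14229164-14229463 and the Spp1 window on the plus strand at chr5:104434861-104435160.
C1qb: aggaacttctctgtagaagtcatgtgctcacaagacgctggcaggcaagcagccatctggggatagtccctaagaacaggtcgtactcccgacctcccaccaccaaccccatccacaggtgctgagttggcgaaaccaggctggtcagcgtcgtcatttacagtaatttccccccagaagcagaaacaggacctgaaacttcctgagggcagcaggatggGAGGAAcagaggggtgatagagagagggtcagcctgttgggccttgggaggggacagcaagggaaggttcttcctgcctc
C1qc: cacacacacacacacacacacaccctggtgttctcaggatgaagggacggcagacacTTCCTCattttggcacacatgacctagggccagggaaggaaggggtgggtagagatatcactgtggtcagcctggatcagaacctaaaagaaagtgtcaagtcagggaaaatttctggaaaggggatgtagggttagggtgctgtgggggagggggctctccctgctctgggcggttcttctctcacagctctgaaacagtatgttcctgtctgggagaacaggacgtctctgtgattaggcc
Mrc1: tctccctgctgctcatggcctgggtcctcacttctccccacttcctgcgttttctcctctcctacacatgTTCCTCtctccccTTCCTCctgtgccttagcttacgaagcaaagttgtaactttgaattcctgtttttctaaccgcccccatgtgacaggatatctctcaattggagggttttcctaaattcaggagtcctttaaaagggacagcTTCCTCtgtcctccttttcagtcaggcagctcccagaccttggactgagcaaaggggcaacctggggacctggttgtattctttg
Spp1: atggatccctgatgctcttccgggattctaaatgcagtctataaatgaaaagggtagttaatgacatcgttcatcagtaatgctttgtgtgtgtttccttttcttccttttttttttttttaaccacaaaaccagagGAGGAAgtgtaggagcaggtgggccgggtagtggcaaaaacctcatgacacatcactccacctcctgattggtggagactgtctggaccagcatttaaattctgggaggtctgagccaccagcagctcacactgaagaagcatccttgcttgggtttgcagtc
C1qb and Spp1 hold the box once on the gene strand, C1qc once on the other strand, and Mrc1 3 times on the other strand. A match of letters is a description of the window, not a site bound by PU.1.

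For most members tumor 6-3-A6 5 held more RNA than the other 4 tumors of its group, in both fractions. In IP it was the highest of its group for 30 of 34 members, at a median of 2.16 times the median of the other 4, and in input for 25 members, at 1.74 times. It was the lowest for 2 members in IP and for 5 in input. Ccr2 (133 CPM), Cd163 (39.9 CPM), Spp1 (2243 CPM) and Maf (223 CPM) were among the 5 in input. Between tumors, fewer cells of a type and less RNA per cell cannot be told apart in bulk samples. Beside it in the group stood tumor 6-3-A6 4, whose input was the lowest for 17 members and the highest for 8. C1qa, Apoe, Trem2, Cd14 and Siglec1 were at their lowest in this input, while Mrc1, Cd163, Spp1, Ccr2 and Maf were at their highest of the group. The summed level of the lymphoid markers was 161 CPM in 6-3-A6 IP 5 against 22.0 to 45.4 CPM in the other IP libraries, and 292 CPM in its input against 44.9 to 106 CPM. The study did not keep 6-3-A6 IP 5.

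**Figure D3:**
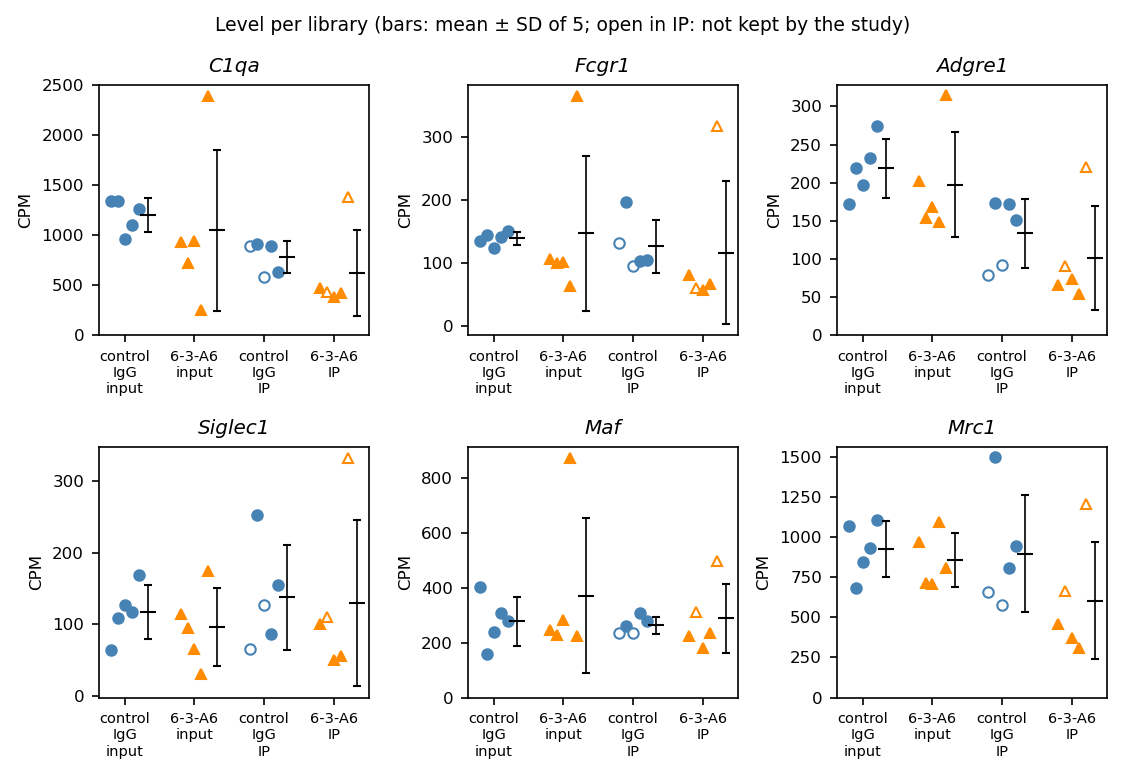
CPM per library (y axis) of 6 macrophage genes in the 4 groups (x axis), with 1 symbol per library, open in IP where the study did not keep the library, and the mean ± SD of 5 at the right of each group. Tumor 6-3-A6 5 is the highest symbol for C1qa, Fcgr1 and Adgre1 in both 6-3-A6 groups.

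In the 6 IP libraries that the study kept, the macrophage genes were lower after 6-3-A6 than after control IgG. Of the 34 members 13 fell and 0 rose, 32 had a negative log2 fold change, and the median was -0.89 against -0.048 for all 13999 genes. Among all genes 2.04% were called lower and 2.57% higher. The 3 libraries of each group did not overlap for 28 members, all lower in 6-3-A6, as for 10.5% of all genes. The 13 were spread over the roles: 5 of 9 scavenger and lectin receptors (Mrc1, Clec7a, Folr2, Msr1 and Cd68), 2 of 3 growth factor and chemokine receptors (Csf1r and Ccr2), 2 of 6 genes for lipid and matrix (Gpnmb and Spp1), 2 of 5 lineage markers (Adgre1 and Lyz2), 1 of 3 C1q chains (C1qa), 1 of 3 Fc receptors (Fcgr4), and 0 of the ITAM adaptors and their partner and of the transcription factors.

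Adgre1 had the smallest p of the 34. It was at 173, 171 and 151 CPM in control IgG IP 2, 4 and 5 and at 66.1, 73.4 and 54.2 CPM in 6-3-A6 IP 1, 3 and 4, so that the groups were far apart. Its log2 fold change was -1.39 ± 0.20 SE (adjusted p = 0.0168). The 2 control IgG libraries that were not kept, at 79.2 and 92.4 CPM, lay nearer to the 6-3-A6 libraries, and 6-3-A6 IP 5, at 221 CPM, lay above every control. Clec7a was at 177, 284 and 202 CPM against 89.6, 105 and 90.8 CPM, without overlap, and fell by 1.25 ± 0.22 SE (adjusted p = 0.0199). Folr2 was at 15.7, 17.0 and 15.2 CPM against 6.81, 6.31 and 9.05 CPM, also without overlap, and fell by 1.15 ± 0.21 SE (adjusted p = 0.0200).

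Of the members followed above, Mrc1 fell the most among those called, from 1084 ± 366 CPM (SD, n = 3) to 380.4 ± 75.5 CPM (log2 fold change -1.54 ± 0.29 SE, adjusted p = 0.0204). Csf1r fell from 565 ± 101 to 246 ± 61.0 CPM (-1.23 ± 0.25 SE, adjusted p = 0.0265), Spp1 from 2569.6 ± 1081 to 1013 ± 214 CPM (-1.37 ± 0.34, adjusted p = 0.0489), and C1qa from 814 ± 155 to 427 ± 48.7 CPM (-0.96 ± 0.23, adjusted p = 0.0410). Among the fits that left out 1 library, Spp1 and C1qa were called only in that without control IgG IP 5. With DESeq2 size factors in edgeR, C1qa kept its call and Spp1 did not. Marco had the largest change of all, from 3.80 ± 3.94 to 0.596 ± 0.161 CPM (-2.73 ± 0.69), with most of the control level in control IgG IP 5. It was not called by the edgeR test (adjusted p = 0.0508), with DESeq2 size factors in edgeR, or without control IgG IP 5 or 6-3-A6 IP 1, 3 or 4. Marco was called lower with DESeq2, with limma voom using sample quality weights, without the filter on low counts and without control IgG IP 2 or 4. Trem2 was at 32.9 ± 7.14 against 20.6 ± 2.93 CPM (-0.71 ± 0.22, adjusted p = 0.0932) and Apoe at 3404 ± 562 against 1989.8 ± 389 CPM (-0.81 ± 0.27, adjusted p = 0.123), neither called. Lgals3 had a positive change that was not called (0.20 ± 0.24, adjusted p = 0.707).

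**Figure D4:**
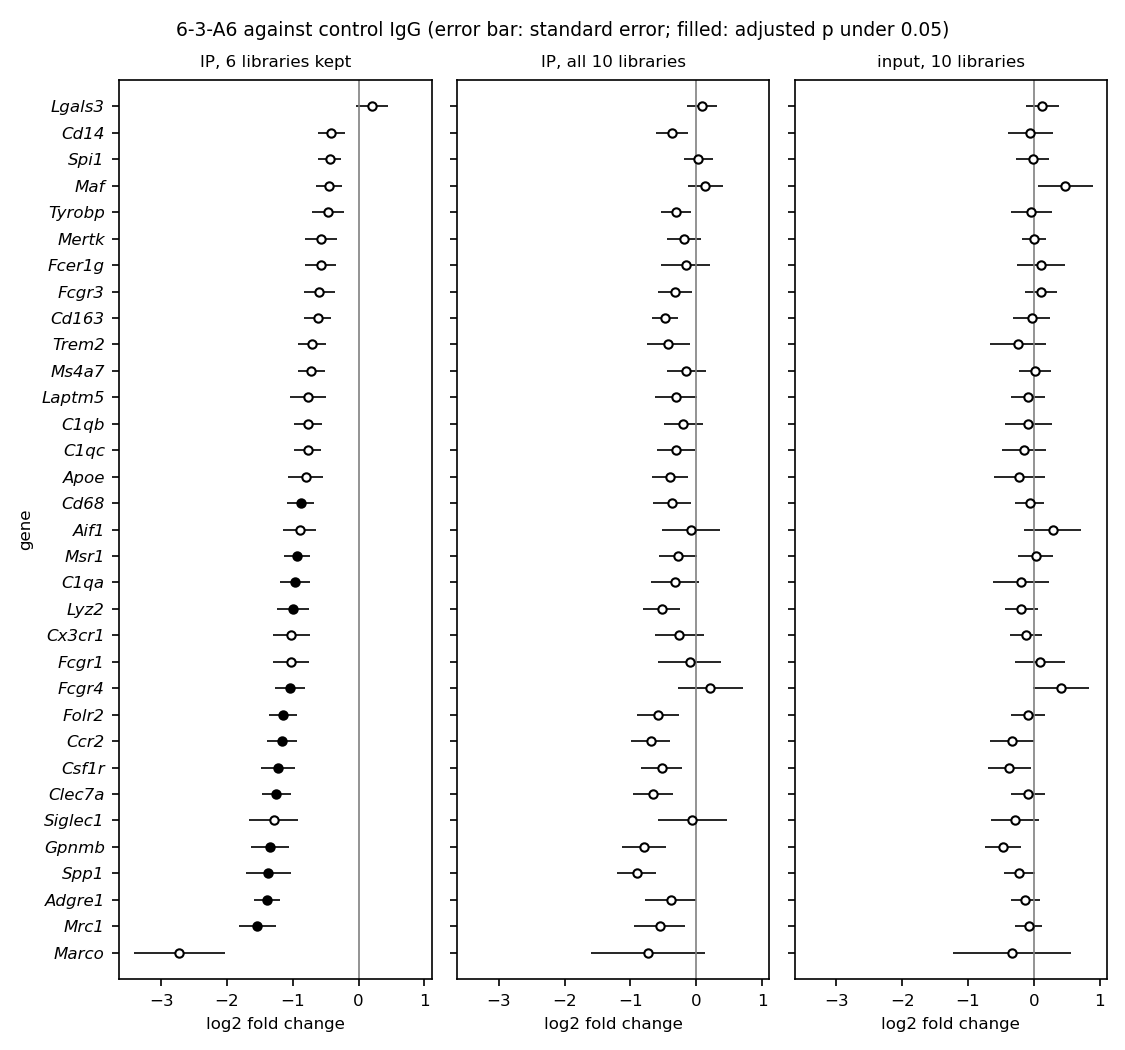
Log2 fold change of 6-3-A6 against control IgG with its standard error (x axis) for 33 of the 34 members (y axis) in the 6 kept IP libraries, all 10 IP libraries and the 10 input libraries; filled symbols have an adjusted p under 0.05. In the left panel 32 genes lie below 0 and 13 are filled, and in the other panels no symbol is filled.

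Endothelial RNA moved the other way in these 6 libraries. The summed level of the 17 endothelial markers was 5058, 1572 and 2800 CPM in control IgG IP 2, 4 and 5 and 6371, 5128 and 6041 CPM in 6-3-A6 IP 1, 3 and 4, without overlap, while in the libraries not kept it was 7085 and 7151 CPM in control IgG and 1246 and 4934 CPM in 6-3-A6. Of the 17 markers 6 rose and 0 fell, against 2.57% of all genes called higher, with a median log2 fold change of 0.93. With the mean log2 CPM of the 17 endothelial markers as a covariate, a setting chosen after the data were seen, 0 members and 1 of 13999 genes were called. The median of the members was -0.65 there, with Adgre1 at -1.35 (adjusted p = 0.355) and Mrc1 at -2.17 (adjusted p = 0.211). When the libraries were instead scaled to the core macrophage genes, 5 of the 34 members were called, against 7918 of 13999 genes, 7870 of them higher. Marco (-1.98) and Mrc1 (-0.73) were among the members called lower and Lgals3 (1.04) among those called higher, and the core genes, which set this scale, are not read on it. The number of members called depended on single libraries: it was 0 without 6-3-A6 IP 3, 3 without 6-3-A6 IP 4, 5 without 6-3-A6 IP 1, 6 without control IgG IP 2 or IP 4 and 15 without control IgG IP 5, while the median lay between -0.998 and -0.73. The genes called in these fits numbered 9, 161 and 345 without 6-3-A6 IP 3, 4 and 1 and 653, 188 and 578 without control IgG IP 2, 4 and 5.

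Over all 10 IP libraries no member was called (edgeR, 0% of 13602 genes called, 292 of them with an unadjusted p under 0.05). Of the 34 members 29 had a negative log2 fold change, with a median of -0.32 against 0.0086 for all genes, and 5 had an unadjusted p under 0.05: Spp1, Cd163, Gpnmb, Ccr2 and Clec7a. DESeq2 and limma voom with sample quality weights also called 0 members, and with the latter the median of the members was -0.66. The groups overlapped for every member. Spp1 was at -0.91 ± 0.30 SE (adjusted p = 1.00). Cd163 was at 44.5, 75.5, 53.6, 78.2 and 68.6 CPM in control IgG IP and at 62.2, 44.6, 39.3, 46.3 and 38.5 CPM in 6-3-A6 IP, with overlap (-0.48 ± 0.20). Gpnmb was at 11.2, 31.0, 29.6, 30.0 and 20.7 CPM against 15.5, 17.1, 9.97, 7.16 and 20.3 CPM, also with overlap (-0.79 ± 0.33). Without 6-3-A6 IP 5 the median of the members was -0.69 and still 0 were called, and without 6-3-A6 IP 4 the median was -0.21.

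In the homogenate, no member differed between treatments by a called amount (edgeR, 0% of 13683 genes called, 180 with an unadjusted p under 0.05), 0 members had an unadjusted p under 0.05, and DESeq2 called 0. The median log2 fold change was -0.080 against 0.0095 for all genes, with 11 members positive and 23 negative. In the input of the 6 tumors whose IP libraries were kept the median was -0.34, and 0 members were called. The 3 members with the smallest p were Gpnmb, Maf and Csf1r. Gpnmb was at 29.6, 49.2, 76.9, 29.7 and 41.4 CPM in control IgG input and at 36.8, 28.4, 34.8, 21.0 and 41.8 CPM in 6-3-A6 input, with overlap (-0.47 ± 0.27 SE). Csf1r was at -0.37 ± 0.33 and Maf at 0.48 ± 0.42, which turned to -0.19 without 6-3-A6 input 4. Tumor 6-3-A6 5 set the median here too, which was -0.35 without its input and 0.050 without 6-3-A6 input 2. The standard errors of the members ranged from 0.18 (Mertk) to 0.89 (Marco) on the log2 scale, so that changes within them were not detectable here. Larger changes could be missed too. In simulated counts for the input comparison, 26 of 100 genes changed 2-fold and 86 of 100 genes changed 4-fold were called.

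The treatment difference in IP was not shown to differ from that in input. The interaction of treatment and fraction over 20 libraries called 0 members (edgeR, 0% of 14488 genes called, 125 with an unadjusted p under 0.05), 0 of the members had an unadjusted p under 0.05, and DESeq2 and the fit with the tumor as a block also called 0. The median was -0.28 against -0.037 for all genes, with 32 members negative, -0.62 without 6-3-A6 IP 5 and 0.048 without 6-3-A6 input 5. In the 6 tumors with kept IP libraries it was -0.53, with 0 members called. Spp1 (-0.70 ± 0.38 SE), Clec7a (-0.57 ± 0.41) and Cd163 (-0.45 ± 0.36) had the smallest p. Simulated counts for the interaction gave calls for 9 of 100 genes changed 2-fold and 67 of 100 genes changed 4-fold, so differences of that size could be missed.

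Of 49 further macrophage and myeloid genes tested, 25 fell and 3 rose in IP (median -0.69), against 21.4% of all genes called lower and 19.8% higher, with Mmp9, Pf4 and Alox5ap of smallest p. In the kept IP libraries 19 of 48 fell and 1 rose (median -0.83), against 2.04% of all genes called lower and 2.57% higher, with Pld4, Csf2ra and Itgb2 of smallest p. Of the ligands and partners of the members 9 of 16 fell and 1 rose in IP, against the same 21.4% and 19.8% of all genes, among them Csf1 (-1.01), the ligand of Csf1r, while Pros1 (0.70), a ligand of Mertk, rose. In the kept IP libraries 5 of the 16 fell, against 2.04% of all genes, and 0 rose. Those that fell included Cx3cl1 (-1.30), the ligand of Cx3cr1, C4b (-1.99), the complement protein downstream of C1q, and Csf1 (-1.09). Of the kinases and partners that act behind ITAM adaptors 3 of 9 rose in IP, Inpp5d (0.99), Plcg2 (0.98) and Syk (0.43), 0 fell and 6 were not called, against 19.8% of all genes called higher. Some of these genes are not limited to myeloid cells. Itgam, which encodes the myeloid integrin CD11b, Gpr34, Lilrb4a, Ccl2 and Lcp2 are listed at 0 counts in all 20 libraries. These counts are not read as absence of the RNA from the tumors, and their cause was not tested.

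Markers of other cell types were read in the same comparisons. The 2 called higher in IP were in the dendritic list, and which cell type their reads came from was not tested. Those called lower in IP, as 21.4% of all genes were, numbered 5 of 10 for fibroblasts, 1 of 6 for mural cells, 2 of 6 for epithelial cells, 5 of 7 for lymphoid cells, 2 of 8 for neutrophils, 4 of 8 for dendritic cells and 0 of 4 for erythroid cells. The mural, neutrophil and erythroid counts were near or under that share of all genes. In the kept IP libraries, where 2.04% of all genes were called lower after 6-3-A6, 2 of 10 fibroblast, 1 of 6 mural, 2 of 6 epithelial, 0 of 7 lymphoid, 0 of 6 neutrophil and 2 of 8 dendritic markers were called lower. The medians of these lists were -0.68 for fibroblasts, -0.88 for mural, -0.98 for epithelial, -0.72 for lymphoid and -0.94 for dendritic cells and -0.33 for neutrophils, beside -0.89 for the members. There 3 of 4 erythroid markers, all globins, rose, against 2.57% of all genes (median of the 4, 3.21). In the libraries not kept, the summed erythroid level was 28.1 and 500 CPM in control IgG IP 1 and 3 and 645 and 36.7 CPM in 6-3-A6 IP 2 and 5. In the kept libraries it was 28.7, 46.2 and 21.0 CPM in control IgG IP 2, 4 and 5. It was 553, 314 and 31.2 CPM in 6-3-A6 IP 1, 3 and 4 of the kept libraries. Itgax, chosen after its values were seen and known as the integrin CD11c of dendritic cells and some macrophages, was at 123, 56.1 and 75.5 CPM against 13.3, 12.8 and 15.6 CPM there and fell by 2.64 ± 0.28 SE (adjusted p = 0.00794). Over all 10 IP libraries Itgax was at -1.18 ± 0.59 SE (adjusted p = 1.00), with 83.1 CPM in 6-3-A6 IP 5 and 18.6 CPM in control IgG IP 3, and in input it was at -0.99 ± 0.41 SE (adjusted p = 1.00, unadjusted 0.0312), neither called. In the comparisons over all IP libraries, in input and for the interaction 0 genes of every list were called. The part of these cell types in the member values was not tested.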

How the data were processed

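RNA was read from 20 libraries, an input and an IP library of each of 10 tumors, as single reads. The authors deposited whole-number counts per gene; STAR 2.7.4a and featureCounts 2.0.1 are named in the study's methods, and featureCounts 1.5.2 is also listed in the submitters' processing notes. The gene positions in the table are those of GRCm39, although the notes name mm10 and GRCh38. How multimapping reads and strand were treated is not given in the sources used here. A second table holds the authors' own comparison, and its fold changes and p-values were not used.

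Counts were tested with the quasi-likelihood test of edgeR 4.0.16 in R 4.3.3, with TMM normalization and its filter on low counts, and p-values were adjusted over all genes by the Benjamini-Hochberg method. A gene was called at an adjusted p under 0.05. IP was compared with input over 20 libraries with treatment in the model, treatment in IP over the 6 libraries kept by the study and over all 10, treatment in input over 10, and their interaction over 20. Departure from carry-over used library offsets from the 12 core macrophage genes. CPM were set on TMM library sizes, and log2 ratios within a tumor used a prior count of 2. Standard errors were taken from the fold change and its F statistic. Each script was tested on simulated data. DESeq2 1.42.0, limma 3.58.1, other scalings, no filter, a block and leaving out each library were tried. Floors cover counting error only.

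IP and input came from the same lysate, but the main fits over both fractions held no tumor block and treated the libraries as independent. The tumor was a block only in an alternative fit, and the correlations of deviations stand in the report. Replicate numbers did not tie tumors across treatments. No 2 libraries of a group agreed within sampling noise (lowest median chi-square 2.20 against 0.455). The labels do not number animals beyond the replicate. Within a fraction, p-values measure the spread between these tumors. Those of the main fits over both fractions do not use the pairing of IP and input.

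The members and the lists (other macrophage and myeloid, ligands and partners, ITAM signaling, and markers of endothelial, fibroblast, mural, epithelial, lymphoid, neutrophil, dendritic and erythroid cells) were chosen with earlier results of these data known. Any member could be named. Values per library and full statistics were given for Adgre1, C1qa, Csf1r, Mrc1, Marco, Trem2, Spp1 and Apoe, for the 3 members with the largest and the 3 with the smallest fold change between fractions and in the departure from carry-over, and for the 3 with the smallest p in each treatment comparison and the interaction, with Pecam1 and Cdh5 as endothelial references and the 3 genes of smallest p called in each other list. Further members are named with their fold changes. The own values of 1 member are not reported here, although it is held in the counts and medians over the members.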

Additional observations from a re-analysis of the deposited data

Results flagged for a closer look

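Within each group of 5 libraries or tumors, the highest or lowest value was compared with the rest for every member, and for the mean core carry-over of the tumors of each treatment, and 26 values among 138 groups tested lay apart from the other 4. Chance gives about 5% of groups, and values of 1 library are not independent of each other. Most came from tumor 6-3-A6 5. In its IP library, C1qa was at 1384 CPM against 381 to 478 CPM in the other 4, C1qb at 814 against 281 to 339.9 CPM, C1qc at 714 against 289 to 301 CPM and Cx3cr1 at 373 against 75.2 to 158 CPM. Fcgr1 was at 318 against 56.4 to 79.8 CPM there, Fcgr4 at 133 against 17.8 to 32.5 CPM, Fcer1g at 282 against 77.5 to 113 CPM and Trem2 at 53.0 against 18.3 to 23.9 CPM. Siglec1 was at 332 CPM against 50.1 to 111 CPM, Cd68 at 222 CPM, Clec7a at 177 CPM, Adgre1 at 221 CPM, Lyz2 at 3431 CPM, Aif1 at 100.1 CPM, Ms4a7 at 107 CPM and Marco at 5.74 CPM, each above the other 4 libraries.

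In the input library of the same tumor C1qc was at 1436 CPM against 301 to 629.7 CPM in the other 4, Fcgr1 at 365 against 63.4 to 106 CPM, Fcgr4 at 259 against 39.0 to 92.4 CPM and Fcer1g at 678 against 159 to 262 CPM. Aif1 was at 178 CPM against 33.0 to 54.9 CPM and Ms4a7 at 148 CPM against 62.7 to 70.7 CPM. The summed lymphoid markers moved with these values, at 161 CPM in IP and 292 CPM in input of tumor 6-3-A6 5, and their part was not tested.

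The other values came from 4 libraries. Maf was at 874 CPM in 6-3-A6 input 4 against 223 to 282 CPM. Marco was at 8.34 CPM in control IgG IP 5 against 0.401 to 1.76 CPM. Cd163 was at 94.4 CPM in control IgG input 5 against 68.2 to 75.2 CPM, and Aif1 was the only low value, at 34.4 CPM in control IgG input 3 against 59.4 to 65.0 CPM.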

How the results depend on the processing

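Of 693 alternative values, 638 kept their direction and their side of the threshold or moved little, 12 lost a call, 8 gained one, 4 reversed and 31 counts moved by over 1.5 times. Members lower in IP numbered 22 without the filter on low counts, 30 with the tumor as a replicate block, 24 in the kept tumors and 24 to 30 without single libraries, against 26. Members departing from carry-over numbered 1 without the filter on low counts, 6 with the tumor as a replicate block and 1 to 3 without single libraries. In the kept IP libraries, members called were 22 with DESeq2, 25 with limma voom and sample quality weights (not run without them), 5 with scaling to the core macrophage genes, 0 with the endothelial covariate (chosen after the data were seen) and 0 to 15 without single libraries, against 13. Genes called there numbered 1251, 1879, 7918, 1 and 9 to 653 in the same order and 1459 without the filter, against 646. Members called there were 11 with DESeq2 size factors in edgeR and 19 without the filter. IP and input differed in 3347 genes in the kept tumors, against 5597. The values that reversed were not called: between fractions Fcgr1 at 0.014 without 6-3-A6 input 5 and Siglec1 at -0.075 without 6-3-A6 IP 5, in all IP libraries Cd163 at 0.020 with core scaling, and in input Maf at -0.19 without 6-3-A6 input 4. Without single libraries these ranged from -0.69 to 0.014 for Fcgr1, from -0.075 to 0.42 for Siglec1 and from -0.19 to 0.66 for Maf. The causes were not tested. Replicate numbers do not pair tumors across treatments, and a block on them called 0 members in IP and in input. In the 6 kept IP libraries no paired analysis was possible because the groups share only 1 replicate number. Depth limited Marco most, whose lowest count in a library was 7.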
